A study of Homo sapiens with 24 samples.

Results

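The early response of SK-MES-1 cells to TGFβ was followed within 1 arm, from its own start to 8 h of stimulation. SK-MES-1 is an established human line of squamous lung cancer. The 6 libraries described here, of 24 in the series, are those labelled as TGFβ-treated at 0 h (3 biological replicates) and at 8 h (3 biological replicates), chosen by these labels alone. All cells, in both arms, had been kept without growth factors for 3 h, and 2 ng/ml TGFβ1 was then added to this arm. The 0 h libraries therefore stand for cells of the arm at the start of stimulation. The model is thus 1 cell line in culture. The 6 libraries of the untreated arm at 0 and 8 h, starved in the same way and given no TGFβ1, serve as the time course without the cytokine. Library names carry a code that is shared by 0 and 8 h within an arm and differs between the arms, and its meaning is not stated. Depth ranged from 49972158 to 77964234 estimated counts in the 6 libraries.

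TGFβ1 is a secreted cytokine that is released from a latent complex and binds a pair of serine/threonine kinase receptors. The receptors phosphorylate SMAD2 and SMAD3, which enter the nucleus with SMAD4 and switch genes on or off together with other transcription factors, while SMAD7 and the co-repressor SKIL act back on the pathway. In epithelial tumour cells the pathway is known for slowing the cell cycle, for matrix production, and for the actin and adhesion changes of epithelial-to-mesenchymal transition (EMT).

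The libraries were first set against their label. Expression is given in TPM, a share of all transcripts that is corrected for transcript length, and a gene was called changed at an adjusted p below 0.01 in limma voom. Of 12 markers of squamous or other epithelial cells, 9 had enough counts to be tested, and the list's summed level ran from 1426 to 1689 TPM at 0 h and from 1840 to 1954 TPM at 8 h. Simple keratins (KRT8, KRT18, KRT19) and the squamous factor TP63 were present. The basal keratins KRT5 and KRT14, however, were at 0 in the 0 h libraries, and the adhesion molecule CDH1 was between 0.969 and 1.46 TPM there. All 8 alveolar or adenocarcinoma markers were under 1 TPM in both groups. The leukocyte list summed to between 33.1 and 44.1 TPM with CD3E at 0 throughout, most of it CD68, and the endothelial list to at most 2.75 TPM. Of 6 tested leukocyte markers 1 rose and 1 fell, where 17.6% of all tested genes rose and 16.3% fell. CSF1R rose from 1.15 ± 0.0972 to 3.83 ± 0.256 TPM. It lacked its canonical transcript here and rose in untreated cells as well (2.20 and 0.73 on the log2 scale). CD68 lay between 30.6 and 40.2 TPM at 0 h and between 26.1 and 27.7 TPM at 8 h (-0.39, limma voom adjusted p = 1.3e-04). It fell in untreated cells too, and its call was lost when only the arm's own 6 libraries were fitted. In the TGFβ arm replicate 2 at 0 h stood apart from the other 0 h libraries. Its counts differed from those of replicates 1 and 3 by a chi-square per gene of 55.5 and 37.3, against 15.6 between replicates 1 and 3 and 4.01 to 6.10 among the 8 h libraries (1 corresponds to sampling noise). The SD of its log2 deviations from the group mean was 0.3928, against 0.3435 and 0.3138 for replicates 1 and 3. In the untreated arm replicate 2 at 0 h also had the largest such SD (0.3451, against 0.3165 and 0.3053). An effect shared by both arms was not tested. Replicate 2 at 0 h of the TGFβ arm is kept below. Counts without it are given for the totals and where it moved a printed count of list members by 1.5 times or more.

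Over the first 8 h, 5906 of 17413 tested genes changed in the TGFβ arm (33.9%), 3061 of them upward (17.6%) and 2845 downward (16.3%). Most changes were small. Of the called genes 3682 (62.3%) moved less than 1.5-fold, whereas 532 rose at least 2-fold (3.06% of the tested genes) and 302 fell at least 2-fold (1.73%). At least 4-fold changes were seen upward for 112 genes and downward for 49. The median log2 fold change of all tested genes was 0.01. As these are whole cultures, more transcript per cell and more cells of a kind cannot be told apart. In the arm's 6 libraries 43.7% of all tested genes had TPM values that did not overlap between 0 h and 8 h. Without replicate 2 at 0 h, 5289 genes were called, of which 761 moved at least 2-fold, against 834 with it. When the fit held only the arm's own 6 libraries, so that the spread was not estimated from all 24, 3203 genes were called. The untreated arm treated in the same way gave 4479 genes, against 4519 with all 24, so which arm had more calls depended on this choice. The upward share of calls in the TGFβ arm was 51.8% with TMM factors, 46.8% (2799 higher and 3178 lower) with upper-quartile factors and 60.7% (3183 higher and 2057 lower) with the qRT-PCR reference genes as library size.

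Untreated cells also changed within the same 8 h. There 4519 genes passed (26.0%), 2304 upward (13.2%) and 2215 downward (12.7%), around a median of 0.00. Of the genes that rose in the TGFβ arm 1567 also rose in untreated cells, which is 51.2% of the former and 68.0% of the latter, and 1604 fell in both arms (56.4% and 72.4%). A direct test of the difference between the arms' changes called 1377 genes (7.91%), with 882 more positive (5.07%) and 495 more negative (2.84%) under TGFβ. Among the genes that rose at least 2-fold in the TGFβ arm, 280 of 532 (52.6%) also rose more than in untreated cells by that test. Among those that fell at least 2-fold, 83 of 302 (27.5%) fell more than in untreated cells, and 203 (67.2%) were also called lower there. Genes called in opposite directions in the arms were few, 122 higher and 44 lower with TGFβ. The share of calls in the upward direction moved further with scaling in the untreated arm, where it was 51.0% with TMM factors, 62.2% with library totals and 35.5% with the reference genes. For the difference between the arms these shares were 64.1%, 51.1% and 83.9%.

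**Figure D1:**
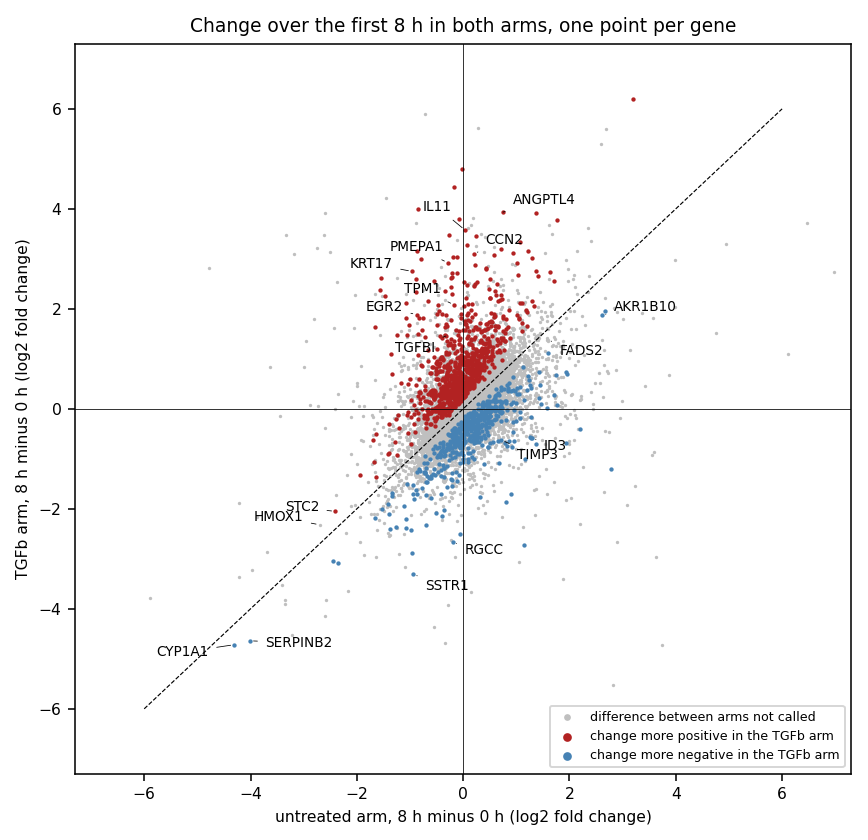
Each point is 1 of 17413 tested genes, with its log2 fold change from 0 h to 8 h in the untreated arm on the x axis and in the TGFβ arm on the y axis. Red and blue mark the 882 and 495 genes whose change was more positive or more negative under TGFβ (limma voom), the dashed line marks equal change, and CYP1A1 and SERPINB2 lie near it at the lower left while CCN2, IL11 and PMEPA1 lie far above it.

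The clearest risers, by p-value, were 2 genes known as direct outputs of the pathway. PMEPA1, a membrane protein that holds back receptor-activated SMADs, stood at 57.4, 39.5 and 60.6 TPM in the 0 h libraries and 486, 485 and 456 TPM in the 8 h libraries. The groups were wide apart, and replicate 2 was the lowest at 0 h. PMEPA1 rose 7.57-fold (log2 fold change 2.92 ± 0.039 SE, limma voom adjusted p = 9.7e-22), whereas it fell slightly in untreated cells (-0.29, adjusted p = 1.6e-05). CCN2, the connective tissue growth factor, had 11.8, 12.2 and 11.96 TPM in the 0 h libraries and 104, 104 and 103 TPM in the 8 h libraries. The 3 libraries within each group were nearly equal, and the rise was 8.57-fold (log2 fold change 3.10 ± 0.053 SE, limma voom adjusted p = 4.0e-20).
Next in order came genes of varied function. DCBLD1, a transmembrane protein, rose from 20.96 ± 0.661 to 104 ± 2.75 TPM (SD, n = 3), and GFPT2, an enzyme that opens the hexosamine pathway, rose from 19.8 ± 0.499 to 75.5 ± 1.31 TPM. The repressor BHLHE40 went from 24.4 ± 2.52 to 179.5 ± 0.229 TPM, which is 7.61-fold. SGK1, a kinase of ion transport and survival, had 8.49, 10.01 and 9.89 TPM in the 0 h libraries and 57.5, 51.4 and 56.8 TPM in the 8 h libraries. It rose 5.83-fold and was not called in untreated cells (0.02, adjusted p = 0.79). CHST3, a chondroitin sulfotransferase, rose from 7.54 ± 0.559 to 30.2 ± 0.294 TPM, AMIGO2, an adhesion protein, from 65.5 ± 5.67 to 245 ± 1.71 TPM, and AFAP1L2, an adaptor of SRC signalling, from 36.4 ± 1.21 to 112 ± 2.33 TPM. Each of these genes rose more than in untreated cells, with adjusted p for the difference between 3.0e-12 and 3.4e-19 in limma voom. GFPT2, DCBLD1, BHLHE40, AMIGO2, AFAP1L2 and CHST3 nevertheless rose in untreated cells too, by 0.16 (CHST3) to 1.01 (BHLHE40) on the log2 scale.

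**Figure D2:**
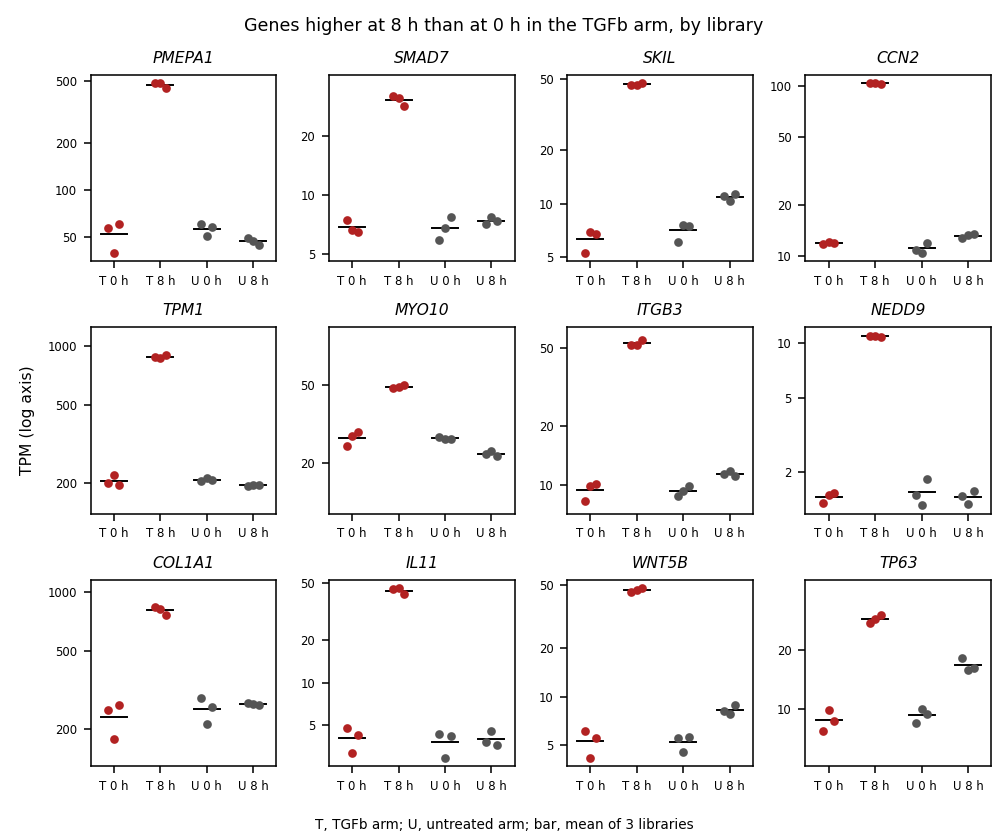
TPM on a log axis in each library of the TGFβ arm (T, red) and of the untreated arm (U, grey) at 0 and 8 h for 12 genes, with bars at the mean of 3 libraries. In every panel the 3 TGFβ libraries at 8 h lie above the other 9 libraries, as for TPM1 with 867 TPM or more against 221 TPM or less.

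Within the pathway itself, a ligand, a latency protein and the feedback inhibitors rose, and the signal-carrying SMADs did not. Counts of list members here and below are to be read against the shares over all tested genes. These were 17.6% higher and 16.3% lower in the TGFβ arm, and 13.2% higher and 12.7% lower in untreated cells. The list of ligands, latency proteins and receptors had 6 of 19 tested members higher and 4 lower (median 0.15), against 3 higher and 3 lower in untreated cells. TGFB1, the ligand that was added, had 70.03, 48.9 and 67.2 TPM in the 0 h libraries and 132, 130.4 and 123 TPM in the 8 h libraries. Its own mRNA rose without overlap between the groups (log2 fold change 1.11 ± 0.14 SE, limma voom adjusted p = 2.1e-06). LTBP2, a latent TGFβ binding protein of the matrix, rose from 9.41 ± 1.42 to 45.1 ± 1.30 TPM (log2 fold change 2.09 ± 0.067 SE, limma voom adjusted p = 6.6e-16). Both changes exceeded those of untreated cells (limma voom adjusted p = 0.0031 for the difference of TGFB1 and 2.7e-12 for LTBP2). TGFB2 was at 17.8 ± 3.37 and 19.7 ± 1.47 TPM (adjusted p = 0.1), while TGFB3 fell (-0.86).
Receptors did not move as 1 group. TGFBR2, the ligand-binding receptor, had 30.8, 38.7 and 36.1 TPM in the 0 h libraries and 34.9, 34.7 and 34.9 TPM in the 8 h libraries, and these groups overlapped (log2 fold change -0.03, limma voom adjusted p = 0.67). TGFBR1, the signalling receptor, was higher by 0.40 (adjusted p = 0.0018). This call was lost with the arm's own libraries alone (0.40), without replicate 1 at 0 h (0.31, adjusted p = 0.016) or replicate 3 at 0 h (0.36, adjusted p = 0.012). TGFBR3, the co-receptor betaglycan, fell from 3.498 ± 0.510 to 2.01 ± 0.220 TPM, more than in untreated cells (-0.01, limma voom adjusted p = 5.6e-06 for the difference), and INHBA, the activin A subunit, fell from 3.46 ± 0.412 to 1.31 ± 0.224 TPM. With the arm's own libraries alone, 2 members of the list were called higher in place of 6.

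Of the SMADs, co-repressors and feedback inhibitors, 7 of 20 tested members rose and 3 fell, against 2 higher and 7 lower in untreated cells. The risers were led by inhibitors. SMAD7, which blocks the receptors, had 7.48, 6.60 and 6.48 TPM in the 0 h libraries and 31.9, 31.3 and 28.5 TPM in the 8 h libraries, a 4.29-fold rise (log2 fold change 2.10 ± 0.056 SE, limma voom adjusted p = 3.5e-17). SKIL, also called SnoN, had 5.31, 6.98 and 6.81 TPM in the 0 h libraries and 46.5, 46.4 and 47.5 TPM in the 8 h libraries and rose 8.65-fold (log2 fold change 3.11 ± 0.11 SE, limma voom adjusted p = 5.0e-15). No 8 h library came near a 0 h library in either gene. SKIL rose in untreated cells as well, by 0.94, and the change under TGFβ was larger (limma voom adjusted p = 4.4e-09 for the difference). The signal carriers SMAD2 and SMAD3 were at 112 ± 13.4 and 193 ± 17.5 TPM at 0 h. SMAD2 was not called (-0.14, adjusted p = 0.064) and SMAD3 fell by 0.23 on the log2 scale, as it did in untreated cells (-0.38).
The ID genes, small helix-loop-helix proteins that block differentiation factors and are classic targets of the sister BMP pathway, did not move as 1 group. ID1 had 41.4, 27.99 and 43.5 TPM in the 0 h libraries and 89.2, 88.4 and 90.5 TPM in the 8 h libraries and rose (log2 fold change 1.26 ± 0.12 SE, limma voom adjusted p = 1.5e-08). It rose also without TGFβ (1.74), and the difference was not called (adjusted p = 0.057). ID2 fell from 27.2 ± 1.503 to 6.89 ± 0.916 TPM (log2 fold change -2.09 ± 0.087 SE, limma voom adjusted p = 6.0e-14), more than in untreated cells (-0.52, limma voom adjusted p = 1.8e-09 for the difference). ID3 fell with TGFβ (-0.59) and rose without it (1.29, limma voom adjusted p = 6.2e-08 for the difference), although its fall was not called with the arm's own libraries alone (-0.60). NOG, a secreted BMP antagonist, rose from 1.21 ± 0.172 to 6.38 ± 0.530 TPM, and BMPR2, a BMP receptor, from 10.98 ± 2.27 to 18.2 ± 0.721 TPM. The whole list of ID genes and the BMP pathway had 4 of 16 tested members higher and 6 lower (median -0.02), against 3 higher and 3 lower in untreated cells.

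Early transcription factors split into risers and fallers. Of 23 immediate-early and AP-1 genes, 8 rose and 7 fell (median 0.38), against 4 higher and 7 lower in untreated cells. JUNB, an AP-1 subunit, had 15.6, 9.57 and 16.7 TPM in the 0 h libraries and 64.3, 68.04 and 67.5 TPM in the 8 h libraries. All 8 h libraries lay above all 0 h libraries (log2 fold change 2.28 ± 0.16 SE, limma voom adjusted p = 2.4e-10). JUN rose from 37.4 ± 6.17 to 75.4 ± 3.86 TPM and MAFK from 43.4 ± 10.7 to 93.4 ± 3.08 TPM, neither of which was called in untreated cells (-0.05 and 0.18). EGR2 rose from 1.07 ± 0.104 to 4.03 ± 0.235 TPM with TGFβ (1.88) and fell without it (-0.88). KLF10, a TGFβ-inducible zinc-finger factor, rose by 0.66.
In contrast, EGR1, FOS and ATF3 were lower at 8 h. EGR1 had 20.6, 20.2 and 23.9 TPM in the 0 h libraries and 4.09, 5.27 and 5.14 TPM in the 8 h libraries, and the groups were far apart (log2 fold change -2.18 ± 0.08 SE, limma voom adjusted p = 7.1e-15). FOS fell from 2.42 ± 0.312 to 0.849 ± 0.198 TPM and ATF3 from 8.99 ± 0.221 to 3.81 ± 0.236 TPM. All 3 of these also fell in untreated cells, with log2 fold changes of -1.66, -0.74 and -1.49.

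The start regions of 3 genes of these groups are shown for the letters they hold, from RefSeq on GRCh38.p14, 250 bases before to 50 bases after the annotated start and written along the gene. Capitals mark GGAATG, the core that TEAD factors recognise, in CCN2, and the CArG box (bound by serum response factor, SRF) in SRF and EGR1. Matches on either strand were taken, and the 13 motifs searched were chosen with earlier results of these data known.
CCN2 promoter, chr6:131951323-131951622 (minus strand): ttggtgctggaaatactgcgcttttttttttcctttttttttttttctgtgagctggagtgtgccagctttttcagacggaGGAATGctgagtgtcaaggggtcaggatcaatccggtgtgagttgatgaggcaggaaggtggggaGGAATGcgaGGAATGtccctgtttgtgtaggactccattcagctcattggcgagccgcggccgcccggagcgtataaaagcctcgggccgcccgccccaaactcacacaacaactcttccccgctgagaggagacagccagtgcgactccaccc
SRF promoter, chr6:43171019-43171318 (plus strand): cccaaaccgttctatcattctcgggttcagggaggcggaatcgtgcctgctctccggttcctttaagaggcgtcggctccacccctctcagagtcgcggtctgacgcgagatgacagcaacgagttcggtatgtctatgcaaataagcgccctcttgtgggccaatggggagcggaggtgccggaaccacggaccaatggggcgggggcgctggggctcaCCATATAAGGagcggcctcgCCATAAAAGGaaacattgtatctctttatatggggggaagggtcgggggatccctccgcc
EGR1 promoter, chr5:138465229-138465528 (plus strand): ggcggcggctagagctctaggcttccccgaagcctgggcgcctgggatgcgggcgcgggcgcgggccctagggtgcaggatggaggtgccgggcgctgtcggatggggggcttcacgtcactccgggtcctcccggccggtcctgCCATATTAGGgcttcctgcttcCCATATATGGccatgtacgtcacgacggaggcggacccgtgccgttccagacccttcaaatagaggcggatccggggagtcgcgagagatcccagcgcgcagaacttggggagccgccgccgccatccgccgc
The CCN2 region held 3 copies of GGAATG, with first bases at -169, -104 and -95 from the start, and 14.0% of 27195 promoters of this length held at least 1. SRF and EGR1 each held 2 CArG boxes, at -30 and -10 and at -105 and -83, against a share of 1.29% among all promoters. The genes with these boxes moved apart, since SRF rose (0.44, adjusted p = 6.4e-05) and EGR1 fell. The SMAD palindrome (GTCTAGAC, both strands alike) was present in 0 of the 204 promoters found for the 280 genes that rose at least 2-fold and more than in untreated cells, and in 0.195% of all promoters. At so low a share a count of 0 among 204 is likely for any genes, so no contrast is drawn from it. The shorter SMAD letters CAGACA stood in 23.5% of these 204 and in 16.8% of all, and the AP-1 letters TGANTCA in 4.90% and 7.73%. Among promoters of tested genes these shares were 0.216%, 13.3% and 5.04%. The other motifs searched, on both strands, were the GC-rich SMAD letters GGCGC, CRE (TGACGTCA), CCAAT, the sterol element TCACNCCAC, the XRE core TNGCGTG and the antioxidant core TGANNNNGC, besides E2F and CHR. Of these, GGCGC is contained in one E2F form, and TGANNNNGC overlaps with TGANTCA by its first letters. A match is a description of these letters in this window only.

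The EMT factors SNAI1 and SNAI2 and the intermediate filament vimentin (VIM) rose, and no fall of the epithelial cadherin was called. The list had 6 of 17 tested members higher and 2 lower (median 0.16), against 1 higher and 9 lower in untreated cells. SNAI1, a repressor of epithelial genes, had 2.66, 3.05 and 2.87 TPM in the 0 h libraries and 5.47, 5.26 and 5.42 TPM in the 8 h libraries (log2 fold change 0.90 ± 0.095 SE, limma voom adjusted p = 1.2e-07). SNAI2, its relative, had 25.03, 29.99 and 26.8 TPM in the 0 h libraries and 47.4, 48.4 and 48.4 TPM in the 8 h libraries (log2 fold change 0.80 ± 0.054 SE, limma voom adjusted p = 1.4e-10). Both groups of libraries were separate in each gene, and both genes fell in untreated cells (-0.50 and -0.26). VIM was abundant and rose from 1978 ± 79.7 to 2758 ± 92.4 TPM (0.46), where untreated cells fell (-0.39).
ZEB1, another repressor, overlapped between 0 and 8 h (0.16, adjusted p = 0.18), and the neural cadherin CDH2 was not called (0.09). CDH1, which was hardly expressed, had 0.969, 1.17 and 1.46 TPM in the 0 h libraries and 2.29, 1.748 and 1.89 TPM in the 8 h libraries. Its values were higher, not lower, at 8 h (0.67, adjusted p = 2.2e-05), and this call was lost on log2(TPM + 1) or with length-scaled counts. LEF1 fell in both arms (-0.78 and -0.68).
Among 31 junction and polarity genes 10 rose and 5 fell (3 without replicate 2 at 0 h, and 2 with the arm's own libraries alone), against 8 higher and 2 lower in untreated cells. In the TGFβ arm 48.4% of these members were called, against 33.9% of all tested genes. The fallers were near the 16.3% of all tested genes that fell. The desmosome genes PKP1, DSP and JUP rose, PKP1 from 33.7 ± 1.32 to 57.3 ± 1.70 TPM and more than in untreated cells (limma voom adjusted p = 5.8e-09 for the difference). For DSP and JUP the difference from untreated cells was not called (limma voom adjusted p = 0.076 and 0.22). The tight junction gene CLDN1 fell from 10.4 ± 1.29 to 6.17 ± 0.317 TPM. It fell in untreated cells too (-0.53, limma voom adjusted p = 0.23 for the difference).

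Squamous lineage genes showed both directions, 6 higher and 4 lower of 16 tested (2 lower with the arm's own libraries alone), against 3 higher and 5 lower in untreated cells. TP63, the p53-family factor of squamous and basal cells, had 7.69, 9.86 and 8.67 TPM in the 0 h libraries and 27.4, 28.7 and 30.3 TPM in the 8 h libraries. Every 8 h library was above every 0 h library, and TP63 rose 3.09-fold (log2 fold change 1.63 ± 0.071 SE, limma voom adjusted p = 1.1e-13), against 0.84 in untreated cells (limma voom adjusted p = 7.5e-06 for the difference). KRT17, a keratin of activated epithelium, had 1.69, 0.911 and 1.17 TPM in the 0 h libraries and 8.08, 7.89 and 6.78 TPM in the 8 h libraries. It rose with TGFβ (2.75) and fell without (-0.96, limma voom adjusted p = 3.6e-08 for the difference). KRT16 rose from 0.170 ± 0.0462 to 1.18 ± 0.0594 TPM. SOX2, which marks squamous tumours by amplification, fell from 2.03 ± 0.211 to 1.31 ± 0.0892 TPM with TGFβ (-0.65) and rose without it (0.95), at low levels throughout. KLF5 fell in both arms (-0.96 and -0.61).

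In the lists of actin, adhesion and motor genes most of the called members rose. The actin and SRF target list had 17 of 42 tested members higher and 3 lower (median 0.23), against 2 higher and 8 lower in untreated cells (median -0.13), and 14 members changed more positively under TGFβ. TPM1, a tropomyosin that winds along actin filaments, had 199.5, 221 and 196 TPM in the 0 h libraries and 884, 867 and 900.5 TPM in the 8 h libraries. It rose 4.23-fold with little spread at 8 h (log2 fold change 2.08 ± 0.05 SE, limma voom adjusted p = 5.6e-18) and was not called in untreated cells (-0.17, adjusted p = 0.015). PDLIM7, a scaffold of actin and kinases, rose from 124 ± 26.6 to 324 ± 14.7 TPM. Cytoplasmic actin ACTG1 had 532, 319 and 579 TPM in the 0 h libraries and 1217, 1092 and 765 TPM in the 8 h libraries, with a wide spread, and rose (1.03, adjusted p = 6.4e-04), a call that was lost with length-scaled counts or TPM values (1.10 to 1.12). The smooth muscle markers ACTA2 and TAGLN, by contrast, were low in all 6 libraries and were not called (0.37 and -0.08, adjusted p = 0.41 and 0.77). LIMA1, an actin bundler, fell from 103 ± 14.01 to 48.6 ± 0.252 TPM and fell in untreated cells too (-0.86). With the arm's own libraries alone, 9 in place of 17 members were called higher.
Of 19 myosins outside class II, 9 rose and 2 fell, against 6 higher and 4 lower in untreated cells, with 5 risers in common and 3 members changing more positively under TGFβ. MYO9B rose in both arms (0.63 and 0.33). MYO10, the motor of filopodia, rose from 26.9 ± 2.28 to 49.02 ± 0.955 TPM (log2 fold change 0.82 ± 0.034 SE, limma voom adjusted p = 6.0e-14), and MYO1E, a membrane-linked motor, rose from 29.7 ± 2.45 to 42.6 ± 1.83 TPM, while both fell in untreated cells (-0.31 and -0.27). MYH9, the heavy chain of non-muscle myosin II, had 312, 297 and 347 TPM in the 0 h libraries and 394, 384 and 363 TPM in the 8 h libraries. Its rise was 0.24 (adjusted p = 0.0054) and was not called without replicate 2 at 0 h (0.17, adjusted p = 0.044), without replicate 1 at 0 h (0.25, adjusted p = 0.010), without replicate 1 or 2 at 8 h (0.21 and 0.22) or without untreated replicate 3 at 0 h (0.23, adjusted p = 0.010).

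Integrins, the receptors that tie the matrix to actin, had 9 of 20 tested members higher and 2 lower (median 0.30), against 6 higher and 5 lower in untreated cells, and 7 changed more positively than in untreated cells. ITGB3 had 8.30, 9.87 and 10.2 TPM in the 0 h libraries and 52.2, 52.02 and 55.3 TPM in the 8 h libraries, a 5.84-fold rise (log2 fold change 2.54 ± 0.06 SE, limma voom adjusted p = 3.5e-18). ITGB6, the partner of ITGAV in releasing latent TGFβ, rose from 1.02 ± 0.118 to 4.41 ± 0.106 TPM, and ITGAV itself from 92.7 ± 19.5 to 179 ± 5.97 TPM. ITGA5, the fibronectin receptor chain, rose from 89.2 ± 2.88 to 172 ± 7.73 TPM and fell in untreated cells (-0.39). The collagen receptor chain ITGA11 rose from 23.2 ± 2.44 to 62.8 ± 4.19 TPM (1.42) and rose less in untreated cells (0.46, limma voom adjusted p = 2.9e-07 for the difference). ITGB1, the common partner, overlapped between the groups (-0.06, adjusted p = 0.52), and the laminin receptor chain ITGA6 fell in both arms (-0.76 and -0.63).
Genes of focal adhesions are given singly. NEDD9, a docking protein of focal adhesions, had 1.35, 1.49 and 1.52 TPM in the 0 h libraries and 10.9, 10.9 and 10.7 TPM in the 8 h libraries. The 0 h libraries were low and the 8 h libraries were nearly equal, an 8.25-fold rise (log2 fold change 3.04 ± 0.075 SE, limma voom adjusted p = 8.2e-18), with no call in untreated cells (-0.11). LIMS1 (PINCH1), which joins integrin-linked kinase to adhesions, rose from 32.5 ± 5.60 to 90.97 ± 3.48 TPM, and MARCKS, an actin-binding kinase substrate, from 73.1 ± 7.55 to 134 ± 5.71 TPM. RHOB rose in both arms (1.12 and 0.73). DIAPH3, a formin, fell in both arms (-0.82 and -0.70).

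Matrix genes rose in part. Collagens had 9 of 24 tested members higher and 3 lower (median 0.30, and 2 lower without replicate 2 at 0 h), against 3 higher and 5 lower in untreated cells, and 7 had a more positive change than in untreated cells. COL1A1, the alpha 1 chain of type I collagen, had 250.1, 179 and 264 TPM in the 0 h libraries and 841, 828 and 768 TPM in the 8 h libraries. The groups were far apart, replicate 2 being the lowest at 0 h (log2 fold change 1.76 ± 0.13 SE, limma voom adjusted p = 4.4e-10), with no call in untreated cells (0.04). COL1A2, the alpha 2 chain of the same fibre, was between 0.0150 and 0.1003 TPM in the 6 libraries, and it is named here after its values were seen. COL4A1, of basement membranes, rose from 37.2 ± 2.94 to 67.6 ± 2.12 TPM and fell in untreated cells (-0.57). COL5A1 rose from 62.05 ± 7.38 to 107 ± 4.64 TPM, and COL13A1 fell in both arms (-1.25 and -0.90, limma voom adjusted p = 0.13 for the difference). The fibroblast marker list moved with these genes, from a sum of 198 to 282 TPM at 0 h to 795 to 866 TPM at 8 h. Of its 9 tested members 3 rose, each at least 2-fold, and 1 fell (0 without replicate 2 at 0 h). Most of that sum was COL1A1. PDGFRB, a receptor of PDGF, rose from 2.58 ± 0.377 to 6.39 ± 0.419 TPM (1.97) and rose less in untreated cells (1.19, limma voom adjusted p = 2.8e-04 for the difference). FAP, a membrane peptidase named after its values were seen, lay between 0.116 and 0.486 TPM at 0 h and between 0.681 and 1.01 TPM at 8 h and rose (2.34). DCN was under 1 TPM and COL3A1 at 2.54 ± 0.201 and 2.89 ± 0.378 TPM, and neither was called. A part of other cells in the change was not tested.
The matrix glycoprotein, proteoglycan and crosslinking list had 17 of 49 tested members higher and 6 lower, against 8 higher and 16 lower in untreated cells. TGFBI, an integrin-binding matrix protein, had 512, 572 and 505 TPM in the 0 h libraries and 1418, 1421 and 1415 TPM in the 8 h libraries (log2 fold change 1.46 ± 0.032 SE, limma voom adjusted p = 1.4e-18). It fell in untreated cells (-0.33). THBS1, thrombospondin 1, which can release latent TGFβ, rose from 328 ± 28.6 to 706 ± 6.04 TPM. CCN1 rose from 15.2 ± 0.626 to 67.2 ± 1.63 TPM (2.11) and rose less in untreated cells (1.07, limma voom adjusted p = 4.2e-10 for the difference). BGN, biglycan, rose from 0.273 ± 0.0416 to 2.96 ± 0.257 TPM. Fibronectin (FN1) rose by 0.30, and in untreated cells by 0.21 (adjusted p = 0.54 for the difference), and its call was lost with the arm's own libraries alone (0.29). The crosslinker LOX was not called (-0.17), though it fell in untreated cells (-0.97), and CCN3, a growth-inhibiting relative of CCN2, fell from 16.4 ± 0.511 to 6.57 ± 0.433 TPM. With the arm's own libraries alone, 11 in place of 17 members were called higher.

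Extracellular proteases and their inhibitors had 18 of 33 tested members higher and 5 lower (median 0.37), against 7 higher and 10 lower in untreated cells, and 16 changed more positively and 3 more negatively under TGFβ. PLAU, the urokinase plasminogen activator, had 98.3, 97.2 and 100.4 TPM in the 0 h libraries and 391, 360.1 and 348 TPM in the 8 h libraries. It rose 3.71-fold (log2 fold change 1.89 ± 0.051 SE, limma voom adjusted p = 3.7e-17) with no call in untreated cells (-0.04), and its receptor PLAUR rose by 0.46. ADAM19, a membrane protease, rose from 9.44 ± 0.858 to 35.9 ± 0.625 TPM and fell in untreated cells (-0.46). The gelatinase MMP2 rose from 370.1 ± 28.2 to 663 ± 9.31 TPM and its activator MMP14 from 128 ± 12.3 to 196 ± 4.63 TPM. TIMP1 was not called (-0.07), whereas TIMP3, an inhibitor bound to the matrix, fell from 39.5 ± 1.750 to 25.9 ± 1.10 TPM with TGFβ and rose without (0.72). PRSS2, a trypsinogen with near-identical relatives among which reads may have been divided, rose from 13.5 ± 1.27 to 79.4 ± 5.08 TPM and rose in untreated cells as well (1.71).
The 15 genes that the study selected as candidates from these same libraries were all called higher at 8 h, with a median of 1.10. The study chose them by treated against untreated cells over its time course, not by this change within 1 arm. In untreated cells 4 of the 15 rose and 7 fell, and 13 changed more positively under TGFβ. Because the candidates were selected on these samples, these counts are not independent evidence of their direction. Changes at 8 h ran from 0.17 for HTRA1 to 2.56 for PRSS2. Without replicate 2 at 0 h 13 of them were called, since HTRA1 (0.13, adjusted p = 0.029) and CORO2B (0.69, adjusted p = 0.014) were lost. Both were lost without some of the other libraries of the arm too, HTRA1 down to 0.13 without replicate 3 at 8 h and CORO2B down to 0.54 without replicate 1 at 8 h. ABLIM1 rose from 12.2 ± 1.99 to 26.4 ± 0.344 TPM, SHROOM4 from 1.36 ± 0.109 to 2.91 ± 0.193 TPM and DYSF from 9.76 ± 0.206 to 17.6 ± 0.623 TPM.

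**Figure D3:**
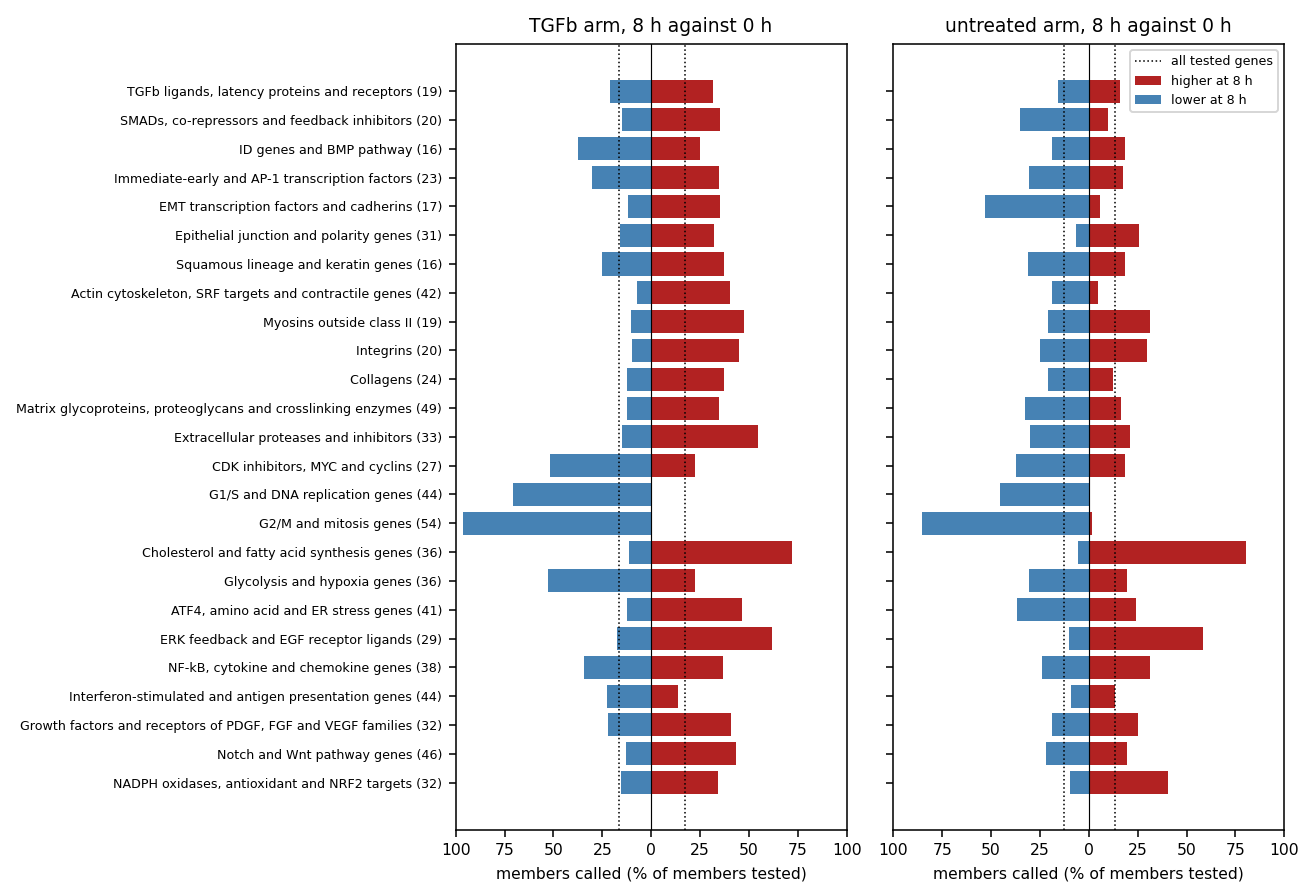
Bars give, for 25 gene lists, the percentage of tested members (number in parentheses) called higher (right, red) or lower (left, blue) at 8 h than at 0 h in the TGFβ arm (left panel) and in the untreated arm (right panel), and dotted lines give the same over all tested genes. Mitosis and replication lists point left and the cholesterol list points right in both panels, while actin and collagen lists point right in the TGFβ panel.

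Genes of several secreted signals rose steeply. IL11, a cytokine of the interleukin-6 family, had 4.77, 3.19 and 4.30 TPM in the 0 h libraries and 45.4, 46.3 and 41.8 TPM in the 8 h libraries. It rose 11.9-fold (log2 fold change 3.57 ± 0.11 SE, limma voom adjusted p = 6.6e-16) and was not called in untreated cells (0.04, adjusted p = 0.86). PDGFB, a mitogen for mesenchymal cells, had 1.52, 1.87 and 1.77 TPM in the 0 h libraries and 16.1, 16.3 and 14.9 TPM in the 8 h libraries (log2 fold change 3.33 ± 0.12 SE, limma voom adjusted p = 4.8e-15), and it rose less in untreated cells (1.06). PDGFA rose from 18.6 ± 2.97 to 55.7 ± 3.56 TPM. WNT5B, a non-canonical Wnt ligand, had 6.08, 4.14 and 5.52 TPM in the 0 h libraries and 44.8, 46.5 and 47.7 TPM in the 8 h libraries. No libraries overlapped, and the rise was 8.45-fold (log2 fold change 3.08 ± 0.099 SE, limma voom adjusted p = 7.4e-16), against 0.57 in untreated cells. ANGPTL4, a lipase inhibitor and adhesion modulator, had 5.71, 4.73 and 5.76 TPM in the 0 h libraries and 82.3, 79.1 and 73.02 TPM in the 8 h libraries, a 15.3-fold rise (log2 fold change 3.94 ± 0.12 SE, limma voom adjusted p = 4.9e-16).
The NF-kB, cytokine and chemokine list as a whole split into 14 risers and 13 fallers of 38 tested, against 12 higher and 9 lower in untreated cells. IL6 rose from 2.71 ± 0.250 to 5.57 ± 0.788 TPM and fell in untreated cells (-0.48). IL1A fell from 15.5 ± 2.46 to 3.84 ± 0.220 TPM, as in untreated cells (-1.57), and IL1B fell from 1.99 ± 0.343 to 0.380 ± 0.0668 TPM, more than in untreated cells (limma voom adjusted p = 9.4e-05 for the difference). NFKBIA, the inhibitor that NF-kB induces, was not called (0.04). Growth factors and receptors of the PDGF, FGF and VEGF families had 13 of 32 tested members higher and 7 lower, against 8 higher and 6 lower in untreated cells, with HGF falling from 2.48 ± 0.370 to 1.22 ± 0.0902 TPM.
Notch and Wnt genes had 20 of 46 tested members higher and 6 lower (median 0.35), against 9 higher and 10 lower in untreated cells. TCF7, a nuclear partner of beta-catenin, rose from 13.6 ± 1.73 to 31.2 ± 1.19 TPM. AXIN2, the usual read-out of canonical Wnt signalling, fell from 8.25 ± 0.132 to 4.51 ± 0.239 TPM, and the receptor FZD7 fell from 48.2 ± 0.601 to 21.2 ± 0.726 TPM. The Notch ligand JAG1 rose from 24.3 ± 3.38 to 36.98 ± 1.03 TPM where untreated cells fell (-0.41). The Notch target HES1 was not called with TGFβ (-0.03), though it fell in untreated cells (-0.67). ERK feedback genes and EGF receptor ligands had 18 of 29 tested members higher and 5 lower, close to untreated cells (17 higher and 3 lower). HBEGF rose from 2.25 ± 0.256 to 5.10 ± 0.299 TPM, EREG fell from 225 ± 35.7 to 54.2 ± 2.70 TPM, and AREG fell with TGFβ (-0.34) and rose without (0.33). With the arm's own libraries alone the Notch and Wnt list had 13 and the ERK list 11 members called higher.

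Most genes of the cell cycle lists fell in the TGFβ arm, and many did so in both arms. Of 54 G2/M and mitosis genes 52 fell and 0 rose with TGFβ (median -0.70), against 46 lower and 1 higher in untreated cells (median -0.48). The estimate was more negative under TGFβ for 54 of these 54 genes (8841 of all 17413 tested genes), yet the difference was called for 4. CCNB1, the mitotic cyclin, had 315, 358 and 315 TPM in the 0 h libraries and 198, 191 and 198 TPM in the 8 h libraries (log2 fold change -0.75 ± 0.047 SE, limma voom adjusted p = 4.4e-11), with -0.57 in untreated cells. NUF2, of the kinetochore, had 58.4, 77.1 and 55.4 TPM in the 0 h libraries and 29.8, 27.1 and 27.4 TPM in the 8 h libraries, and the groups did not overlap (-1.22). CCNA2, the S and G2 cyclin, fell from 76.9 ± 16.1 to 32.97 ± 15.7 TPM, with replicate 3 at 8 h (51.03 TPM) nearest to the 0 h libraries. MKI67, the proliferation marker, fell by 0.34 on the log2 scale, and was not called with the arm's own libraries alone (-0.34).
G1/S and replication genes fell in 31 of 44 cases with 0 risers (median -0.38, limma voom, edgeR and DESeq2 each called 0 higher in both lists, as did an unadjusted p below 0.05), against 20 in untreated cells (median -0.18), and 6 fell more under TGFβ. RRM2, a subunit of ribonucleotide reductase, had 269.8, 285 and 304 TPM in the 0 h libraries and 141, 139.5 and 134 TPM in the 8 h libraries. All 8 h libraries lay below all 0 h libraries (log2 fold change -1.27 ± 0.045 SE, limma voom adjusted p = 3.2e-15), by more than in untreated cells (-0.72, limma voom adjusted p = 1.5e-06 for the difference). PCNA, the replication clamp, fell from 233 ± 11.7 to 159 ± 3.59 TPM, again more than in untreated cells (limma voom adjusted p = 4.9e-04 for the difference).

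**Figure D4:**
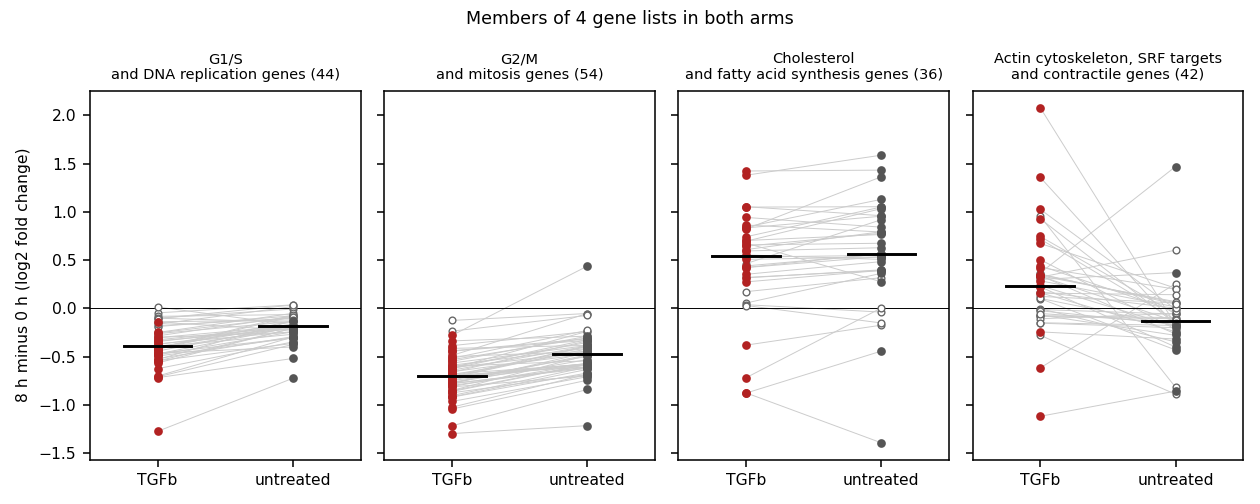
Log2 fold change from 0 h to 8 h of each tested member of 4 lists in the TGFβ arm (left of each panel) and the untreated arm (right), with lines joining a gene. Filled points passed the test, open points did not, and bars are medians. Medians were -0.38 and -0.18 for G1/S, -0.70 and -0.48 for G2/M, 0.54 and 0.56 for cholesterol and 0.23 and -0.13 for actin genes.

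Promoters of both cell cycle lists are shown for the letters known from such genes, again from RefSeq on GRCh38.p14 and along the gene. Capitals mark an E2F motif (TTCCCGC or TTGGCGC, either strand) in PCNA and the CHR motif of late cell cycle genes (TTTGAAA, either strand) in NUF2.
PCNA promoter, chr20:5126573-5126872 (minus strand): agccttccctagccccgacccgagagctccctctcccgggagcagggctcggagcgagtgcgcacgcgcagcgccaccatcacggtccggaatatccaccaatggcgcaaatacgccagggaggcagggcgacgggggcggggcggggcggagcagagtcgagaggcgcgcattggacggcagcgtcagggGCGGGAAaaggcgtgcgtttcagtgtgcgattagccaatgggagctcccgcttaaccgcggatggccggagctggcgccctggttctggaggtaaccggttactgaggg
NUF2 promoter, chr1:163321704-163322003 (plus strand): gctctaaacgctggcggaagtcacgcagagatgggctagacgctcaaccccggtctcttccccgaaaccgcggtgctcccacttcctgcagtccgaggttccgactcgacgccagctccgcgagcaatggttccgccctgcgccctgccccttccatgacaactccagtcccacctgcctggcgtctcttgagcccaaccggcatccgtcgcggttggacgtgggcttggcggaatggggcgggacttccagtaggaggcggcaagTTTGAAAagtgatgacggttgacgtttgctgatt
The E2F letters began at -59 in PCNA and were present in 26 of 38 G1/S promoters found (68.4%), in 9 of 46 G2/M promoters (19.6%) and in 9.36% of all promoters. The CHR letters began at 17 in NUF2 and were present in 17 of 46 G2/M promoters (37.0%), in 1 of 38 G1/S promoters (2.63%) and in 6.23% of all. The CCAAT box stood in 73.9% of G2/M promoters and 35.7% of all. Among promoters of tested genes the shares were 14.1% for E2F, 3.97% for CHR and 36.2% for CCAAT. These shares describe what the lists hold and use no expression value.
Of the 5 tested CDK inhibitors 3 fell and 2 were not called. Among CDK inhibitors, MYC and cyclins 14 of 27 fell and 6 rose, against 5 higher and 10 lower in untreated cells. CDKN1A (p21) had 159, 139.7 and 161 TPM in the 0 h libraries and 82.8, 85.1 and 83.1 TPM in the 8 h libraries. It fell (log2 fold change -0.90 ± 0.06 SE, limma voom adjusted p = 1.3e-10), though less than in untreated cells (-1.41, limma voom adjusted p = 2.0e-04 for the difference). CDKN1B (p27) fell from 40.4 ± 1.18 to 16.9 ± 0.672 TPM, more than in untreated cells (-0.73). RGCC, a regulator of CDK1 that is known as a TGFβ target in other cells, had 75.3, 72.2 and 69.7 TPM in the 0 h libraries and 11.5, 10.4 and 12.2 TPM in the 8 h libraries. It fell 6.38-fold (log2 fold change -2.67 ± 0.084 SE, limma voom adjusted p = 4.6e-16) with hardly a change in untreated cells (-0.20, limma voom adjusted p = 4.3e-13 for the difference). MYC was not called (0.22, adjusted p = 0.015), and the G1 cyclin CCND1 rose from 206 ± 33.4 to 354 ± 29.4 TPM (log2 fold change 0.78 ± 0.039 SE, limma voom adjusted p = 1.1e-12), more than in untreated cells (0.16). With the arm's own libraries alone 2 in place of 6 members were called higher, and 4 without replicate 2 at 0 h.

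Lipid synthesis genes rose in both arms. Of 36 cholesterol and fatty acid genes 26 rose and 4 fell (median 0.54), against 29 higher and 2 lower in untreated cells (median 0.56), and all 26 risers also rose there. SCD, the stearoyl-CoA desaturase, had 123, 150.5 and 141 TPM in the 0 h libraries and 355, 369 and 397 TPM in the 8 h libraries. The groups did not overlap, and log2 fold changes were 1.42 with TGFβ and 1.43 without. FADS2 rose from 49.3 ± 1.67 to 126 ± 1.52 TPM and FASN, the fatty acid synthase, from 106 ± 22.9 to 205 ± 8.20 TPM. ELOVL6, an elongase, fell with TGFβ (-0.72) and was not called without it (0.00, limma voom adjusted p = 5.0e-06 for the difference).
Glycolysis and hypoxia genes fell in 19 of 36 cases and rose in 8 (median -0.25), against 7 higher and 11 lower in untreated cells. LDHA fell from 1712 ± 113 to 1337 ± 10.4 TPM, as in untreated cells (-0.39), and CA9, a hypoxia marker, fell from 2.79 ± 0.730 to 1.56 ± 0.0355 TPM. The glucose transporter SLC2A1 had 631, 519 and 651 TPM in the 0 h libraries and 626, 634 and 612 TPM in the 8 h libraries. It was not called (0.00), while it fell in untreated cells (-0.77, limma voom adjusted p = 4.5e-07 for the difference). HK2 and PFKFB4 rose in both arms, HK2 by 0.54 and 0.39.
Of the ATF4, amino acid and ER stress genes 19 of 41 rose and 5 fell, against 10 higher and 15 lower in untreated cells (11 risers with the arm's own libraries alone). ASNS, asparagine synthetase, rose from 38.95 ± 1.88 to 57.4 ± 2.05 TPM and rose in untreated cells as well (0.62 and 0.52, adjusted p = 0.47 for the difference). The chaperone HSPA5 rose from 287 ± 23.4 to 358 ± 17.3 TPM, with no call in untreated cells (-0.16, limma voom adjusted p = 7.4e-05 for the difference). The stress factors ATF4 and DDIT3 fell in both arms, ATF4 by a log2 fold change of -0.17 with TGFβ and -0.39 without, and DDIT3 by -0.32 and -0.34. The fall of ATF4 was not called with the arm's own libraries alone (-0.17), and neither fall was called when libraries were scaled to the reference genes (-0.14 and -0.30). The antioxidant list had 11 of 32 tested members higher and 5 lower, against 13 higher and 3 lower in untreated cells. NQO1 rose in both arms, less with TGFβ (0.38 against 0.71, limma voom adjusted p = 7.5e-06 for the difference), as did AKR1B10 (1.87 against 2.61). The superoxide-producing oxidase NOX4 was at most 0.106 TPM in the 6 libraries. Interferon-stimulated genes had 6 of 44 tested members higher and 10 lower (3 and 6 with the arm's own libraries alone, and 4 higher without replicate 2 at 0 h), against 6 higher and 4 lower in untreated cells. In the TGFβ arm 36.4% of this list was called, close to the 33.9% of all tested genes. The 13 mitochondrially encoded genes held 9.81% to 10.1% of TPM at 0 h and 10.5% to 11.6% at 8 h in the TGFβ arm. In untreated cells they held 8.77% to 9.64% at 0 h and 9.35% to 10.5% at 8 h. Of these genes 0 were called in either arm.

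Large falls were in part shared with untreated cells. CYP1A1, a target of the aryl hydrocarbon receptor, had 67.9, 68.8 and 66.5 TPM in the 0 h libraries and 2.80, 2.75 and 2.70 TPM in the 8 h libraries. It fell 26.3-fold (log2 fold change -4.72 ± 0.076 SE, limma voom adjusted p = 2.2e-20), and its untreated libraries had 73.3, 75.1 and 71.4 TPM at 0 h and 4.14, 4.81 and 3.53 TPM at 8 h. SERPINB2, an inhibitor of plasminogen activators, had 118, 132 and 109.6 TPM in the 0 h libraries and 4.82, 4.85 and 5.03 TPM in the 8 h libraries and fell 24.9-fold (log2 fold change -4.64 ± 0.094 SE, limma voom adjusted p = 4.5e-19), with -4.02 in untreated cells. In both genes the fall was somewhat larger with TGFβ (limma voom adjusted p = 0.008 for the difference of CYP1A1 and 0.0016 for SERPINB2). CYP1B1, ADAMTS1 and DHRS9 fell in both arms and further with TGFβ, CYP1B1 from 418 ± 46.8 to 96.03 ± 2.67 TPM.
JARID2, a partner of the polycomb complex, had 29.4, 31.8 and 32.8 TPM in the 0 h libraries and 12.8, 12.2 and 12.4 TPM in the 8 h libraries. Its fall was smaller than in untreated cells (-1.36 against -1.65, limma voom adjusted p = 7.2e-05 for the difference), as was that of STC2, a secreted glycoprotein of the stress response, which went from 314 ± 32.4 to 87.5 ± 9.06 TPM (-2.05 against -2.40, adjusted p = 0.0029). HMOX1, heme oxygenase 1, had 654, 589.8 and 758 TPM in the 0 h libraries and 147, 136 and 123 TPM in the 8 h libraries. It fell 4.99-fold (-2.32, against -2.69 in untreated cells).
Other genes fell further under TGFβ. SSTR1, a somatostatin receptor, had 10.6, 10.7 and 11.3 TPM in the 0 h libraries and 1.11, 1.27 and 0.990 TPM in the 8 h libraries. It fell 9.92-fold (log2 fold change -3.31 ± 0.086 SE, limma voom adjusted p = 1.9e-17), against -0.94 in untreated cells (limma voom adjusted p = 6.7e-13 for the difference). IL6R, the interleukin-6 receptor, had 15.5, 17.1 and 17.8 TPM in the 0 h libraries and 4.60, 4.10 and 3.66 TPM in the 8 h libraries (log2 fold change -2.43 ± 0.054 SE, limma voom adjusted p = 1.4e-18), against -0.98 (limma voom adjusted p = 3.5e-12 for the difference). ALDH1A3, which makes retinoic acid, fell from 455 ± 35.4 to 147 ± 3.32 TPM, against -0.87 on the log2 scale in untreated cells. TNFRSF11B, osteoprotegerin, fell from 11.3 ± 2.01 to 5.47 ± 0.736 TPM with TGFβ and rose without (0.67), and the thrombin receptor F2R did the opposite, rising from 22.7 ± 1.43 to 41.8 ± 0.1001 TPM with TGFβ and falling without (-0.78). These values of F2R and TNFRSF11B were chosen for their difference between the arms.

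**Figure D5:**
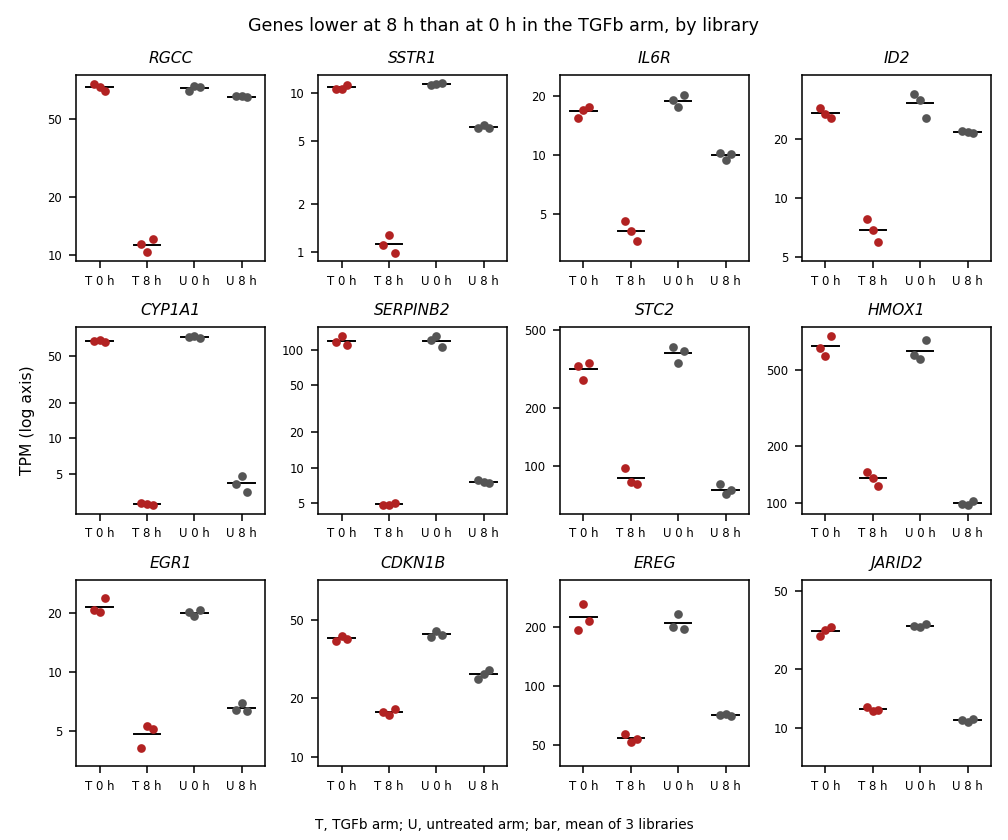
TPM on a log axis in each library of the TGFβ arm (T, red) and of the untreated arm (U, grey) at 0 and 8 h for 12 genes that fell with TGFβ, with bars at the mean of 3 libraries. In SSTR1 the TGFβ libraries at 8 h had 1.27 TPM or less against 5.99 TPM or more elsewhere, whereas STC2, HMOX1 and JARID2 were lower at 8 h in the untreated arm than in the TGFβ arm.

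Levels at 24 and 48 h in the TGFβ arm are set beside those of 8 h without a test, because their libraries carry another code. PMEPA1 was at 476 ± 17.1, 469 ± 86.1 and 486 ± 18.4 TPM (SD, n = 3) at 8, 24 and 48 h, and CCN2 at 104 ± 0.712, 72.5 ± 1.70 and 99.9 ± 3.62 TPM. COL1A1 was at 812 ± 38.9, 1539 ± 282 and 2255 ± 169.8 TPM, and its later values were higher. For IL11 they were lower, 22.9 ± 0.869 and 27.99 ± 0.629 TPM after 44.5 ± 2.39 TPM, and likewise for ANGPTL4 with 27.8 ± 2.11 and 23.9 ± 1.39 after 78.1 ± 4.71 TPM. RGCC stayed low at 12.3 ± 1.98 and 8.83 ± 2.06 TPM.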

How the data were processed

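RNA of SK-MES-1 cells was sequenced on an Illumina instrument. The authors quantified transcripts of Ensembl release 79 (GRCh38) with kallisto 0.43.0, per the labels and methods, and deposited for each library the estimated counts, the TPM and the effective length of each transcript. Here estimated counts and TPM were summed to genes through transcript identifiers of GENCODE release 44, where 155518 of 173259 transcripts (89.8%) and 95.0% to 95.2% of counts of the 6 libraries matched. The rest came from retired identifiers, so 1007 of the tested genes lack their canonical transcript, among them KRT8, CSF1R, DHRS9, COL13A1, MYO9B, ATF4 and ITGA6. Gene sums were rounded, and genes with at least 10 counts in at least 3 of the 24 libraries were kept (17413).

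Changes were tested with limma voom (limma 3.58.1, R 4.3.3) with TMM factors (edgeR 4.0.16) on all 24 libraries with 8 group means, after the study's methods, with Benjamini-Hochberg adjusted p below 0.01. The fit used estimated counts, and TPM are printed as levels, and SE is that of the log2 fold change. On simulated counts of 17192 genes, voom recovered 193 of 200 changed genes in the TGFβ arm and called 3 unchanged ones. The changed genes were well counted and moved 2-fold or 4-fold, and libraries were drawn independently. In the data 62.3% of called genes moved less than 1.5-fold, so the simulation does not measure recovery or error for these. Alternatives included edgeR, DESeq2 1.42.0, other scalings and filters, length-scaled counts, log2(TPM + 1), and leaving out each library. Genes named in the text were the 10 risers and 10 fallers with the lowest p (protein-coding, at least 2-fold, mean of at least 1 TPM, groups not overlapping), the anchors and up to 3 further called members per direction in each of 34 lists, the 5 with the lowest p of each sign for the difference between the arms, and the study's candidates with MYH9 and MYO1E. Genes that the rule allows were in part left out, and some single genes and 1 list are not reported here. Members, lists and motifs were chosen with earlier results of these data known. Replicates are labelled biological replicates. Their numbers did not pair libraries at 0 and 8 h of the TGFβ arm (correlations of deviations -0.0011, -0.064 and -0.039). Promoters came from RefSeq, GRCh38.p14.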

Additional observations from a re-analysis of the deposited data

Results flagged for a closer look

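Several genes were called in opposite directions in the arms, with the difference also called by limma voom. For each, the log2 fold change from 0 h to 8 h is given with TGFβ, then without, and then their difference. Those with a rise under TGFβ and a fall in untreated cells are given first. Among regulators these were PMEPA1 (2.92 and -0.29, difference 3.21), the early factor EGR2 (1.88 and -0.88, difference 2.76) and the EMT factors SNAI1 (0.90 and -0.50, difference 1.40) and SNAI2 (0.80 and -0.26, difference 1.06).
Among structural and motor genes they were VIM (0.46 and -0.39, difference 0.85), KRT17 (2.75 and -0.96, difference 3.71), MYO1E (0.47 and -0.27, difference 0.74), MYO10 (0.82 and -0.31, difference 1.13), MARCKS (0.86 and -0.36, difference 1.22) and the membrane repair gene DYSF (0.87 and -0.30, difference 1.17). Among matrix and adhesion genes they were ITGA5 (1.00 and -0.39, difference 1.39), COL4A1 (0.85 and -0.57, difference 1.41), TGFBI (1.46 and -0.33, difference 1.78) and ADAM19 (1.95 and -0.46, difference 2.41). Signalling genes of this kind were IL6 (0.95 and -0.48, difference 1.43), JAG1 (0.57 and -0.41, difference 0.97) and F2R (0.87 and -0.78, difference 1.64).
A fall under TGFβ and a rise in untreated cells were found for ID3 (-0.59 and 1.29, difference -1.88), SOX2 (-0.65 and 0.95, difference -1.60), TIMP3 (-0.62 and 0.72, difference -1.34), AREG (-0.34 and 0.33, difference -0.67) and TNFRSF11B (-1.07 and 0.67, difference -1.74). Library code and treatment differ together between the arms and cannot be told apart here.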

How the results depend on the processing

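The number of genes changed from 0 h to 8 h in the TGFβ arm was 5906, and 15 of 17 other settings gave counts within 1.5 times of it. It was 3203 with the arm's own 6 libraries, and 2866 when a replicate block was added to that fit of 6 libraries. The 12 libraries of both arms at 0 and 8 h, without a block, gave 5089. The untreated arm gave 4479 with its own 6 libraries, 4001 with the block added to these, and 3543 with the 12 without a block. The cause of these shifts was not tested. Changes of at least 2-fold numbered 834, and 392 by limma-trend on log2(TPM + 1), a scale that shrinks changes of low genes. The untreated count of 4519 became 7864 with sample quality weights, and the 1377 genes that differed between the arms became 2750 with these weights and 2130 at an adjusted p below 0.05. The cause of the shift with weights was not tested. edgeR gave 5898, 843, 4506 and 1396 for the 4 counts, and DESeq2 gave 6337, 823, 4991 and 1726. Leaving out 1 library at a time gave 4920 to 5960, 761 to 872, 3525 to 5101 and 1157 to 1482.

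Within an arm, replicate numbers did not pair the 0 h with the 8 h libraries, which did not all correlate best with their own number. In PMEPA1 and COL1A1 replicate 2 was the lowest 0 h library with TGFβ (39.5 and 179 TPM). Replicate 2 was also the lowest of the untreated 0 h libraries in these genes (50.3 and 213 TPM). Whether the numbers pair libraries between the arms at the same time was not tested. The main test of the difference between the arms used group means only. The replicate block over 24 libraries gave 6408, 841, 5096 and 1599 genes, and over the 0 and 8 h libraries 2866, 773, 4001 and 959. With that smaller block SMAD3 (-0.24), AREG (-0.35) and HSPA5 (0.30) were not called. None of the genes named changed direction beyond the threshold in any setting, and 4 of 143 called genes lost their call when 1 library was left out. Depth limits what can be said of some genes near 1 TPM, such as KRT16 and ACTA2, with as few as 4 and 36.4 counts in a library of the arm. CDH1, also near 1 TPM, had at least 149.6 counts in each of the 6 libraries. Its call was lost with length-scaled counts or on log2(TPM + 1). There are 3 libraries a group, the arms differ in library code as well as in treatment, and these cannot be told apart.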
